A study of Homo sapiens with 27 samples.

Results

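The transcripts of 30 genes of cholesterol and fatty acid synthesis were followed while human embryonic stem cells were turned toward photoreceptors on 3 laminin coatings. The 30 genes were chosen by name, from the known steps of the pathway and its regulators, out of 44852 genes with more than 1 count summed over the libraries. No measured value served as a rule for the choice, but earlier results of these data were known when it was made. Of these, 8 belong to the mevalonate arm, 12 to the steps from squalene to cholesterol, 6 to regulation and sterol transport, and 4 to fatty acid synthesis and desaturation.

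Cells make cholesterol from acetyl-CoA by way of mevalonate, farnesyl diphosphate, squalene and lanosterol, and the same early steps feed ubiquinone, dolichol and the prenyl groups of small GTPases. When membrane sterol is low, the escort protein SCAP carries the membrane-bound factors SREBP1 and SREBP2 to the Golgi, where they are cut, and the released part switches on the genes of synthesis and uptake. When sterol is high, the INSIG proteins hold SCAP in the endoplasmic reticulum. In the retina, photoreceptor discs need large amounts of polyunsaturated fatty acids, and the neural retina makes part of its own cholesterol.

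The study compared H1 cells, an established human embryonic stem cell line, plated on the laminin isoform LN523, LN323 or LN521, to ask whether laminins of the retina help to form photoreceptor progenitors. RNA was taken from bulk cultures at day 2, day 22 and day 32, with 3 libraries for each of the 9 combinations of coating and day. Each library of a group was sequenced on its own one of 3 lanes, so lane and library number are the same. All wells received CKI-7 and SB431542 from day 2 and then a photoreceptor medium with B27 without vitamin A, N2, BDNF, CNTF, retinoic acid and DAPT, from day 7 by the submitters' design text and from day 9 by the study's methods. Day 2 is therefore the labelled undifferentiated state. The sources differ on the coatings: the study's methods describe LN523 and LN323 each mixed with LN521, with LN521 alone as the third, whereas the submitters' design text describes LN323 alone or mixed with LN521 or LN523. The names LN523, LN323 and LN521 follow the sample labels here. The whole series is 1 cell line, cells were not sorted, and no label says whether the 3 libraries of a group came from separate cultures, so the tests measure only the spread between these libraries, which may be technical.

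Library totals ran from 25620624 to 47340990 counts with a median of 39862487. The labelled state matched its markers at day 2, when the summed level of 6 pluripotency genes was 5187 to 8737 CPM (counts scaled to library size by TMM over the 27 libraries) and that of 6 retinal progenitor genes was 3.56 to 6.91 CPM. At day 22 these sums were 27.7 to 381 CPM and 922 to 1974 CPM. The 6 photoreceptor markers stood at 0.246 to 1.25 CPM in sum at day 2, at 7.09 to 21.4 CPM at day 22 and at 17.4 to 167 CPM at day 32. Pigment epithelium markers summed to 119 to 229 CPM at day 2 and 832 to 2423 CPM at day 22. Keratinocyte markers summed to 155 to 278 CPM and then 305 to 709 CPM. Neuronal markers summed to 86.8 to 126 CPM at day 2. At day 22 they stood at 98.3 to 124 CPM on LN523, 94.8 to 125 CPM on LN323 and 115 to 475 CPM on LN521. Cells were not sorted, so each value below is an average over mixed cells. Fewer cells of a type and less RNA per cell cannot be told apart.

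The promoters are shown first. Whether their motifs have a part in the co-variation described below was not tested. SREBP2 and SREBP1 bind a sterol regulatory element next to sites of the general factors NF-Y and Sp1. RefSeq promoter windows (GRCh38.p14, from 250 bases before to 50 after the annotated start) were at hand for 26 of the 30 genes, and for ACAT2, SQLE, FDFT1 and FASN not. Some genes had several annotated starts and so several windows, and a match in any of them counted for the gene. All motifs were searched on both strands and allowed to overlap. The letters TCACNCCAC of the sterol regulatory element were in 1 of 26 genes, SREBF2 (3.85%). They were in 1.46% of the 11024 expressed genes with a window (10 counts or more in each library) and 1.39% of all 27305 genes with a window. CCAAT, the NF-Y box, was in 19 of 26 genes (73.1%), against 42.7% and 39.7%. GGGCGG, an Sp1 box, was in 24 of 26 (92.3%), against 77.8% and 48.3%. A match is a description of letters and not of a bound site. A missing match does not show that a gene lacks a sterol element, as only 1 spelling near the annotated start was searched.

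The SREBF2 window is shown because it alone held all 3 motifs. It lies upstream of the start of the gene, at chr22:41832855-41833104 on the plus strand, and capitals mark the sterol element, the NF-Y box and the Sp1 boxes.
SREBF2: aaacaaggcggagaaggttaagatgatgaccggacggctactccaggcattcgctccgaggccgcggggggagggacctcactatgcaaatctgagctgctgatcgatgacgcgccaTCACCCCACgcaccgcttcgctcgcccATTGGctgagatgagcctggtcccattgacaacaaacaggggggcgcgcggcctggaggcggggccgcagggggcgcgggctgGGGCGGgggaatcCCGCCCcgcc

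The bases around a CCAAT box are given for 9 genes of the group that varied together and for INSIG1, which did not follow it, a choice made after the values were seen. Each stretch is written on the strand of its gene, and ATTGG in capitals is CCAAT read on the other strand.
HMGCS1: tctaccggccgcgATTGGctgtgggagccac
MVK: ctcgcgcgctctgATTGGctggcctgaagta
MVD: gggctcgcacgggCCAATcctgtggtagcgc
FDPS: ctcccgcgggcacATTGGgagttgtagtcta
LSS: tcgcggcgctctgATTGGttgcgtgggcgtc
NSDHL: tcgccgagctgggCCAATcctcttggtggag
EBP: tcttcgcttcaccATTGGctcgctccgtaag
DHCR7: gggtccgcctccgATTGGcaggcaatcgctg
SCD: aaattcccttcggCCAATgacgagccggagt
INSIG1: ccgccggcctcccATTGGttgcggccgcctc
In 17 genes a box could be cut out whole upstream of the start. Where a window held several such boxes, only that nearest the start was taken. The boxes so chosen lay 30 to 186 bases before the start. Other boxes lay farther out, such as at position -229 in SCD and -228 in NSDHL. Of the 14 genes that varied together most tightly, 12 had a window and 10 held CCAAT. Of the other 16, 14 had a window and 9 held it.

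All 30 genes were expressed in every library, the lowest single count being 163, of CYP51A1. Compared per length, in the deposited TPM, SCD had the highest mean level at 675 TPM, followed by FASN at 336 and FDFT1 at 253, and CYP51A1 the lowest at 10.8. The 30 genes together took 3376 to 4978 TPM at day 2 with a median of 4075, 2579 to 4428 at day 22 with a median of 3293, and 2777 to 4145 at day 32 with a median of 3609. These ranges overlap.

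Between day 2 and day 22, averaged over the 3 coatings, 18 of the 30 genes changed by edgeR's quasi-likelihood test (Benjamini-Hochberg adjusted p under 0.05 over every gene tested), 4 higher and 14 lower. FASN and ACAT2 fell the most, SCD and EBP followed, and FADS1, STARD4, INSIG1 and TM7SF2 rose. The share called over all 44852 genes was 35.1%, of which 18.2% were higher and 16.9% lower, and among the 14675 expressed genes it was 66.4%, with 34% higher and 32.4% lower. Of the 30 genes, 23 (76.7%) had a fold change below 0 on the log2 scale, against 48.9% of those 14675. The median log2 fold change was -0.30 for the 30 genes and -0.005 for all genes tested. The split of calls differed between ways of processing: limma on log2(TPM + 1) gave 6 higher and 6 lower. A fit of the day 2 and day 22 libraries alone gave 6 higher and 12 lower.

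**Figure D1:**
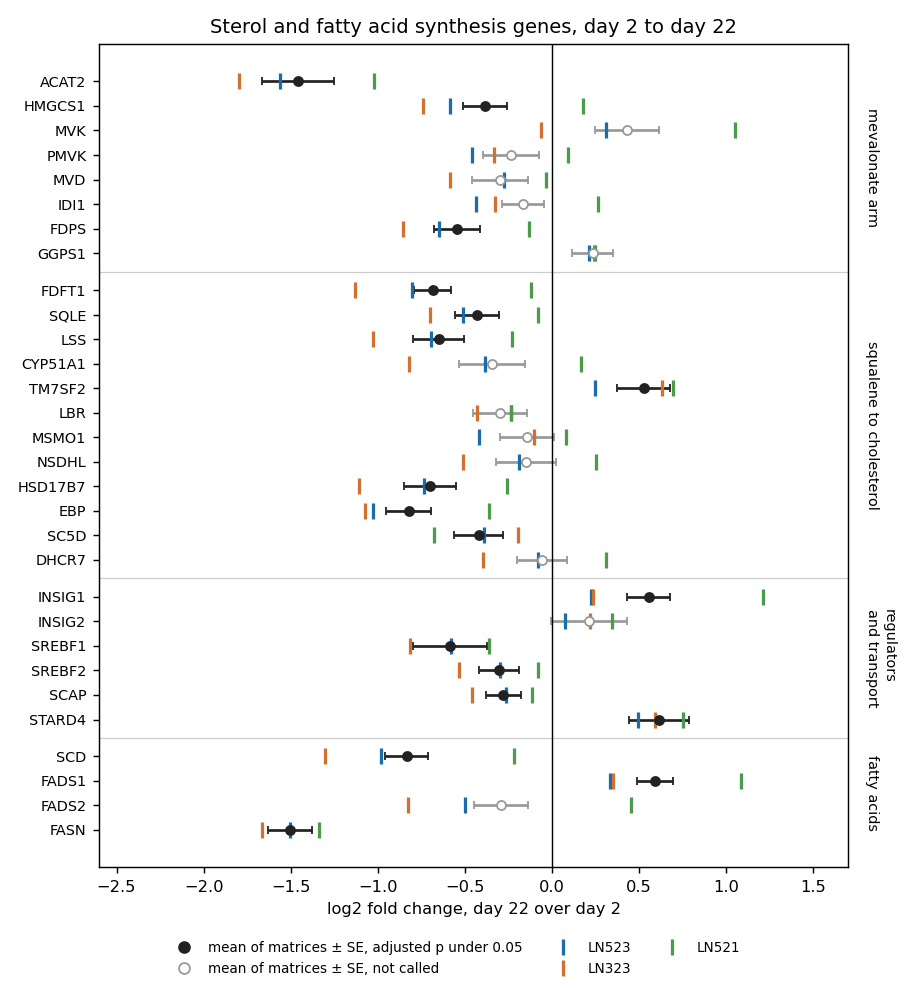
Log2 fold change from day 2 to day 22 of the 30 genes, grouped by role. Circles give the mean of the 3 coatings with its SE, filled where the adjusted p was under 0.05, and coloured ticks give each coating alone. FASN and ACAT2 lie farthest to the left at -1.50 and -1.46, and the LN521 ticks lie to the right of the LN323 ticks for most genes.

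In the mevalonate arm, 0 of 8 genes rose and 3 fell. ACAT2 (ENSG00000120437, chr6:159762045-159779112 in hg38), the cytosolic thiolase that joins the first pair of acetyl-CoA units, had 99.98 to 218 CPM at day 2 with a median of 156, and 29.6 to 112 CPM at day 22 with a median of 42.2. Its 9 libraries of day 22 reached into the day 2 range only with 1 library, the LN523 library of lane 2. The log2 fold change was -1.46 (SE 0.20, adjusted p = 3.12e-08), a 2.75-fold lower level.

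HMGCS1, the HMG-CoA synthase, stood at 163 to 335 CPM with a median of 285 at day 2 and at 141 to 278 CPM with a median of 198 at day 22, a log2 fold change of -0.38 (SE 0.12, adjusted p = 0.0117). FDPS, which makes farnesyl diphosphate at the branch toward sterols and prenyl groups, stood at 86.0 to 122 CPM with a median of 105 at day 2 and at 47.2 to 98.7 CPM with a median of 65.3 at day 22, a log2 fold change of -0.54 (SE 0.13, adjusted p = 5.58e-04). The day ranges of both genes overlap.

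The 5 other genes of this arm did not pass the test. They are MVK and PMVK, the kinases that phosphorylate mevalonate in turn, MVD, the decarboxylase that follows them, IDI1, the isomerase of isopentenyl diphosphate, and GGPS1, which makes geranylgeranyl diphosphate. Their log2 fold changes were 0.43, -0.23, -0.30, -0.17 and 0.23, and MVK had an adjusted p of 0.0635. Of the 26 other fits described below, GGPS1 was called higher in 14 and MVK in 12. Exons of 4 genes of this arm overlap a gene on the opposite strand over 15.0% or more of their length in the GENCODE annotation, 37.7% for HMGCS1, 18.6% for FDPS, 17.2% for ACAT2 and 15.0% for IDI1. The library kit keeps strand, and the strand setting of the counting is not given in the sources used here.

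Of the 12 genes from squalene to cholesterol, 6 fell and 1 rose. FDFT1, squalene synthase and the first step that commits to sterols, stood at 336 to 534 CPM at day 2 with a median of 471 and at 223 to 369.6 CPM at day 22 with a median of 285, a log2 fold change of -0.69 (SE 0.11, adjusted p = 3.70e-07) or 1.61-fold lower. EBP (ENSG00000147155, chrX:48521799-48528716), the sterol isomerase, stood at 61.3 to 95.02 CPM and then at 31.0 to 58.6 CPM, a log2 fold change of -0.82 (SE 0.13, adjusted p = 3.86e-07) or 1.77-fold lower. FDFT1 ranges met at their edges, and every EBP value of day 22 lay below every value of day 2.

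HSD17B7, a reductase that acts on the sterol's keto group, stood at 18.8 to 36.3 CPM at day 2 and at 12.7 to 22.7 CPM at day 22, a log2 fold change of -0.70 (SE 0.15, adjusted p = 9.71e-05). LSS, which closes squalene epoxide to lanosterol, stood at 155 to 319 CPM at day 2 and at 94.6 to 241 CPM at day 22, with -0.65 (SE 0.14, adjusted p = 1.94e-04) on the log2 scale. SQLE, squalene epoxidase, at 162 to 309.9 CPM and then 128 to 254 CPM, and SC5D, a sterol desaturase, at 45.1 to 71.7 CPM and then 29.2 to 69.3 CPM, had log2 fold changes of -0.43 (adjusted p = 0.00493) and -0.42 (adjusted p = 0.0142). The ranges of these 4 genes overlap between the days.

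TM7SF2, one of the enzymes that reduce the sterol C14 double bond, stood at 52.8 to 91.5 CPM with a median of 60.4 at day 2 and at 48.4 to 147 CPM with a median of 87.7 at day 22, a rise of 0.53 on the log2 scale (SE 0.15, adjusted p = 0.00474). LBR, the nuclear membrane protein with the same reductase activity, had -0.30 and did not pass. CYP51A1, the lanosterol demethylase, MSMO1 and NSDHL, which act in the removal of methyl groups from the ring, and DHCR7, the reductase of the last step, did not pass either, at -0.35, -0.15, -0.15 and -0.06.

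Among the 6 regulators and transporters, 2 rose and 3 fell. INSIG1 (ENSG00000186480, chr7:155297776-155310235), which holds SCAP in the endoplasmic reticulum and is itself a target of SREBPs, stood at 45.1 to 92.4 CPM with a median of 76.7 at day 2 and at 80.6 to 132 CPM with a median of 103 at day 22, a log2 fold change of 0.56 (SE 0.12, adjusted p = 1.86e-04). STARD4, which carries cholesterol between membranes, stood at 34.2 to 69.0 CPM at day 2 and at 46.4 to 103 CPM at day 22, with 0.61 (SE 0.17, adjusted p = 0.00309) on the log2 scale. It was higher at day 22 in 9 of 9 pairs of libraries of the same coating and lane, although the ranges of the 2 days overlap.

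SREBF1 and SREBF2 encode SREBP1 and SREBP2, and SCAP their escort. SREBF1 stood at 72.1 to 168 CPM at day 2 with a median of 124 and at 39.2 to 168 CPM at day 22 with a median of 61.3, a log2 fold change of -0.59 (SE 0.21, adjusted p = 0.0239). It was called in 3 of 8 other ways of processing, so its fall depends on the method. SREBF2 stood at 246 to 396 CPM and then at 200.5 to 377 CPM, a log2 fold change of -0.30 (SE 0.11, adjusted p = 0.0318). SCAP stood at 199.7 to 271 CPM and then at 167 to 223 CPM, with -0.28 (SE 0.10, adjusted p = 0.0235), and was lower in 9 of 9 pairs. INSIG2, the second INSIG, had 0.21 and did not pass.

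Of the 4 fatty acid genes, FASN (ENSG00000169710, chr17:82078338-82098294), the fatty acid synthase, showed the largest change of the 30. It stood at 1078 to 1870.2 CPM at day 2 with a median of 1501 and at 335 to 729 CPM at day 22 with a median of 449.7. All 9 values of day 22 lay below all 9 of day 2, and the log2 fold change was -1.50 (SE 0.13, adjusted p = 5.71e-15), a 2.84-fold lower level. FASN and EBP were the only 2 of the 30 genes whose day 2 and day 22 libraries did not overlap, both lower, where 7.43% of all genes had no overlap in that direction.

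SCD (ENSG00000099194, chr10:100347233-100364826), the desaturase that makes oleate, stood at 959.8 to 1656 CPM with a median of 1209.6 at day 2 and at 453 to 1289.7 CPM with a median of 678 at day 22, a log2 fold change of -0.83 (SE 0.12, adjusted p = 1.21e-07). FADS1, the delta-5 desaturase of polyunsaturated fatty acids, stood at 208 to 303 CPM at day 2 and at 286 to 511 CPM at day 22, and rose by 0.59 on the log2 scale (SE 0.10, adjusted p = 3.38e-06) or 1.51-fold. FADS2, the delta-6 desaturase, had -0.29 and did not pass. FADS1 (chr11:61799627-61829318, minus strand) and FADS2 (chr11:61792980-61867354, plus strand) lie across each other and had fold changes of opposite sign, and 4.79% of FADS1 exons overlap FADS2.

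Of the 18 calls, 10 held in all 26 other fits, which are 8 other ways of processing and 18 in which 1 library of day 2 or day 22 was left out. These were the rises of FADS1, INSIG1, STARD4 and TM7SF2 and the falls of ACAT2, EBP, FASN, FDFT1, HSD17B7 and SCD. Of the SCD transcript 49.5% is nearly identical to stretches of other genes, among them SCDP1, and the same holds for 47.9% of CYP51A1, 19.5% of HSD17B7 and 15.2% of FDPS, so the counts of these 4 genes are less certain. The other 8 calls each failed in at least 1 fit. FDPS and LSS lost theirs with limma on log2(TPM + 1) alone, at adjusted p of 0.0768 and 0.0702, and HMGCS1, SQLE, SC5D, SREBF1, SREBF2 and SCAP lost theirs there and in 7, 5, 6, 8, 14 and 11 of the 18 fits without 1 library. SREBF2 and SCAP also lost theirs in the fit of the libraries compared alone, and SREBF1 with DESeq2, with either stricter filter and without lane in the fit.

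Other genes of the same pathways moved in both directions over this step. Of 23 further genes of fatty acid synthesis and elongation, 7 rose and 9 fell. SCD5, a desaturase related to SCD, rose the most, with a log2 fold change of 5.23 (SE 0.17, adjusted p = 1.46e-31, edgeR) from a low level, ELOVL2, an elongase of polyunsaturated fatty acids, rose by 3.26 and ELOVL3 by 1.94. MID1IP1, which activates acetyl-CoA carboxylase, changed by -1.84, FADS3 by -1.70 and ACLY, the source of cytosolic acetyl-CoA, by -1.48. The rise of SCD5 and the fall of SCD thus occurred in the same libraries.

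Of 8 genes of SREBP processing and of sterol-regulated protein turnover, 6 rose and 1 fell, with the proteases MBTPS2 and MBTPS1, which cut SREBPs, at 0.94 and 0.77. Of 6 other genes that respond to SREBPs, 2 rose, LPIN1 by 2.28 and MMAB by 0.79, and 3 fell, RDH11 at -0.87, PNPLA3 at -0.69 and TMEM97 at -0.47. Of 10 genes that use isoprenoids, 1 rose, FNTB at 0.54, and 5 fell, led by PDSS1 at -1.69 and COQ2 at -1.57, both of ubiquinone synthesis, and NUS1 at -1.01, of dolichol synthesis. Of 13 genes of cholesterol storage, export and oxysterols, 6 rose and 5 fell: SOAT1, which esterifies cholesterol, had 2.76, the oxysterol enzymes CYP7B1 and CYP27A1 had 2.55 and 1.77, and CH25H, the sterol transporter ABCG1 and MYLIP had -4.63, -1.50 and -1.47. Proliferation markers moved over the same step, 5 of 5 lower with a median log2 fold change of -0.996, and their part in the changes of the 30 genes was not tested.

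On each coating taken alone, LN523 and LN323 libraries gave falls only in edgeR's test, and LN521 libraries gave both. Limma on log2(TPM + 1) gave another split, with 2 higher and 3 lower on LN523, where the median of the 30 was -0.08, and 3 higher and 6 lower on LN323. On LN523, 9 genes fell and 0 rose, where 21.7% of all genes were called and 10.2% were lower, and 46.3% and 22.9% of the expressed genes, and the median log2 fold change of the 30 was -0.40. The largest falls on LN523 were ACAT2 at -1.56, FASN at -1.51, EBP at -1.03, SCD at -0.98 and FDFT1 at -0.80. On LN323, 13 genes fell and 0 rose, where 22.7% of all genes were called and 10.9% were lower, and 48.3% and 24.4% of the expressed genes, with a median of -0.52. The largest falls there were ACAT2 at -1.79, FASN at -1.67, SCD at -1.30, FDFT1 at -1.13 and HSD17B7 at -1.11.

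On LN521, 3 genes fell and 3 rose, where 18.9% of all genes were called, 8.09% lower and 10.8% higher, and the median of the 30 was 0.02. Of the expressed genes 39.6% were called on LN521, 16.5% lower and 23.2% higher. As all 30 genes are expressed, these shares are the nearer background. The share of the 30 called in either direction lay below that of expressed genes on each coating, and the share that fell lay above it on LN523 and LN323 and below it on LN521. FASN, ACAT2 and SC5D fell by 1.34, 1.02 and 0.68 on the log2 scale, and INSIG1, FADS1 and MVK rose by 1.21, 1.09 and 1.05. INSIG1 stood at 45.1, 71.0 and 50.1 CPM at day 2 on LN521 in lanes 1, 2 and 3 and at 122, 132 and 124 CPM at day 22. All 3 INSIG1 values at day 22 lay above all 3 at day 2. The LN521 calls of FASN, INSIG1 and FADS1 held in every one of the 8 other ways of processing and the 6 fits without 1 LN521 library of these days. That of ACAT2 was lost with either stricter filter, with limma, and without the day 2 library of lane 1 or 2 or the day 22 library of lane 2 or 3. That of SC5D was lost with limma and without the day 2 library of lane 2 or 3 or the day 22 library of lane 1 or 2, and that of MVK with limma and without the day 2 library of lane 3 or the day 22 library of lane 1.

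The difference between the coatings in this step was tested directly and 0 of the 30 genes passed, with a lowest adjusted p of 0.386 in edgeR's test, 7 genes with an unadjusted p under 0.05, and 0.0245% of all genes called. The separate counts on LN523, LN323 and LN521 are therefore not shown to differ. In single coatings the counts also moved with 1 library: on LN523 from 9 to 4 without its day 22 library of lane 3 and to 5 without its day 22 or its day 2 library of lane 1, and on LN323 from 13 to 7 without its day 22 library of lane 1 and to 8 without its day 2 library of lane 1.

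**Figure D2:**
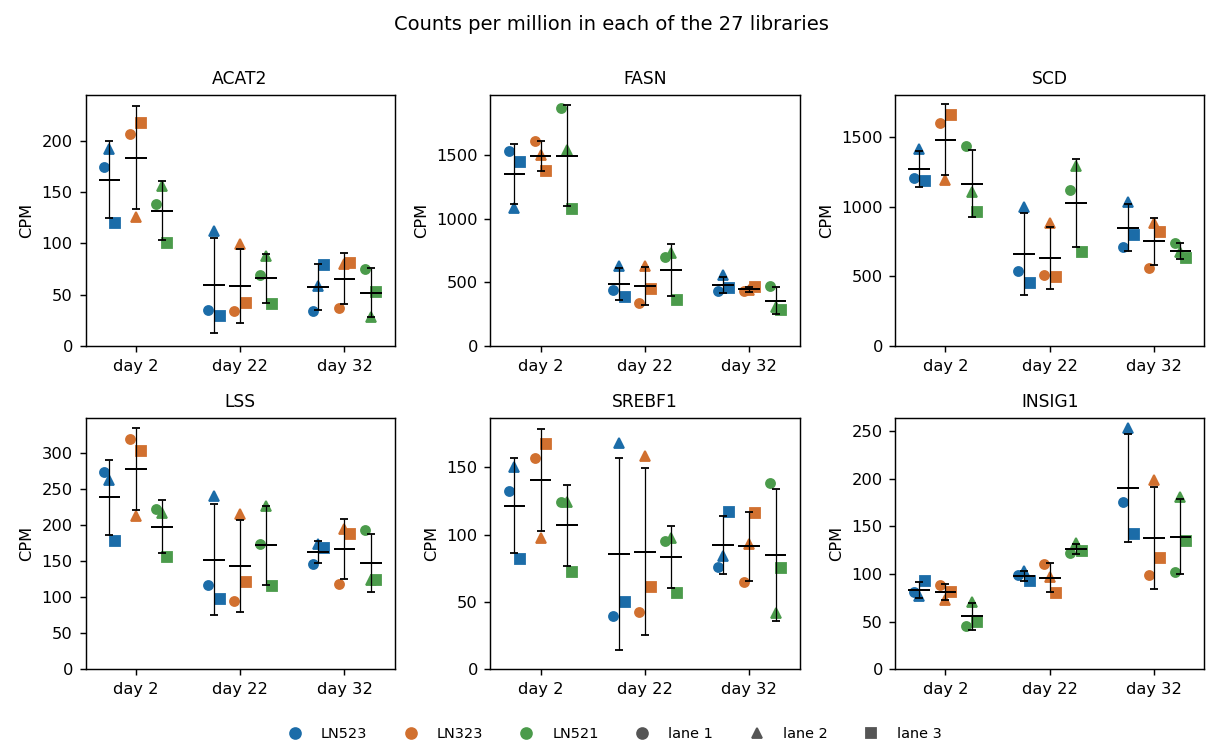
Level in CPM of 6 genes in each of the 27 libraries, by day. Colour gives the coating, marker shape the lane, and bars the mean and SD of 3 libraries. ACAT2 and FASN are lower at days 22 and 32 than at day 2, and at day 22 the lane 2 triangle is the highest of its group in ACAT2, SCD, LSS and SREBF1 on all 3 coatings.

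Between day 22 and day 32, INSIG1 alone of the 30 genes changed. Its libraries on LN523 had 98.8, 103 and 92.7 CPM at day 22 in lanes 1, 2 and 3 and 176, 253 and 142 CPM at day 32, so that the 2 days did not overlap. On LN323 it went from 111, 97.3 and 80.6 CPM to 98.7, 199 and 117 CPM, and on LN521 from 122, 132 and 124 CPM to 102, 181 and 135 CPM, with overlap on both.

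Averaged over the coatings, the log2 fold change of INSIG1 was 0.51 (SE 0.12, adjusted p = 0.0164, edgeR), 1.42-fold higher, in 7 of 9 pairs of libraries. On LN523 alone it was 0.93 (adjusted p = 0.0255). Over all genes 1.33% were called in the mean of the coatings and 0.381% on LN523, and over the expressed genes 2.16% and 0.566%. The INSIG1 call was lost with limma on log2(TPM + 1), where the adjusted p was 0.118, and without the LN323 library of day 32 in lane 2 or the LN521 library of day 22 in lane 2. On LN523 alone the call was lost in 5 of 6 fits without 1 LN523 library of these days, all but that without the day 32 library of lane 3.

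The other 29 genes had log2 fold changes from -0.27, for FASN, to 0.32, for MSMO1, with IDI1 at 0.30, and 4 of the 30 had an unadjusted p under 0.05. The difference between coatings in this step gave 0 calls among the 30 genes and 0 among all genes in edgeR's test, with an unadjusted p under 0.05 for 5 of the 30 and 1507 of all genes. FASN stayed near its day 22 level, at 284 to 555 CPM with a median of 437 at day 32. ACAT2 stood at 28.2 to 80.5 CPM with a median of 58.5. Over the same step all 6 photoreceptor markers rose, with a median log2 fold change of 3.02, as did 4 of 4 lens, 4 of 6 neuronal and 3 of 6 surface ectoderm markers, and 2 of 6 pluripotency markers fell. Their part in the INSIG1 change was not tested. Of the further genes of these pathways described above, ABCG1, of cholesterol export, alone was called in edgeR's test, higher by 1.26 on the log2 scale (SE 0.25, adjusted p = 0.0012).

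Within day 2, FADS2 and NSDHL were higher on LN323 than on LN521, and 0 of the 30 passed between LN523 and LN521 or between LN523 and LN323, where 0.624% and 0.233% of all genes did and 7 and 1 of the 30 had an unadjusted p under 0.05. FADS2 had 845, 556 and 911 CPM on LN323 in lanes 1, 2 and 3 and 483, 488 and 367 CPM on LN521, a log2 fold change of 0.70 (SE 0.17, adjusted p = 0.0049, edgeR). NSDHL had 53.8, 38.9 and 58.3 CPM on LN323 and 24.9, 27.4 and 32.0 CPM on LN521, a log2 fold change of 0.73 (SE 0.21, adjusted p = 0.0275). The groups do not overlap for either gene, and 2.5% of all genes and 5.08% of the expressed genes were called in this comparison. In a test of the 3 coatings at once, FADS2 alone of the 30 passed (adjusted p = 0.0159, edgeR's F test), where 2.22% of all genes and 4.26% of the expressed genes did.

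At day 2, 11 of the 30 genes had all LN323 libraries above all LN521 libraries, against 9.23% of all genes, and 8 had all LN523 libraries above all LN521 libraries, against 6.1%. Against LN521, 26 of the 30 genes had a log2 fold change above 0 on LN523 and 23 on LN323, with medians of 0.21 and 0.28, where the median of the 14675 expressed genes was 0.04 in both. This lean depended on the scale. With limma on log2(TPM + 1) the median of the 30 on LN323 was 0.04, where that of all genes tested was -0.19. The summed TPM of the 30 averaged 4237 on LN521, 4111 on LN323 and 4012 on LN523 at day 2. On LN523 and LN323, 13.3% and 23.3% of the 30 lay below 0, against 44.8% and 45.4% of the expressed genes. Many of the 30 varied together between libraries, so these are not counts of separate observations. Both calls were lost with DESeq2, with either stricter filter on low counts and with limma on log2(TPM + 1), and the 2 filters and limma left 0 calls among all genes. The count between LN323 and LN521 was 0 without the LN323 library of lane 1 or of lane 3, and FADS2 also lost its call without the LN521 library of lane 3 and NSDHL without that of lane 1 or of lane 2. The count was 12, all higher on LN323, without the LN323 library of lane 2, when 3439 genes (9%) were called in all. That library was the lowest of its group in 14 of the 14 genes that varied together most tightly. Of all 30 genes it was the lowest in 21 and the highest in 4.

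Within day 22, SCD was lower on LN523 and on LN323 than on LN521. It had 536, 999.85 and 453 CPM on LN523, 508, 886 and 493 CPM on LN323, and 1117, 1289.7 and 678 CPM on LN521. In each of the 3 lanes the LN521 library was the highest, although the groups overlap. The log2 fold change was -0.68 on LN523 (SE 0.17, adjusted p = 0.0208, edgeR) and -0.72 on LN323 (SE 0.17, adjusted p = 0.00819), with 0.572% and 0.616% of all genes called. Of the expressed genes 0.995% and 1.06% were called. Over the 3 coatings at once the adjusted p of SCD was 0.00374 in edgeR's F test, with 0.774% of all genes and 1.31% of the expressed genes called.

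Of the 30 genes, 25 on LN523 and 27 on LN323 had a log2 fold change below 0 against LN521 at day 22. Among the expressed genes 51.1% and 49.9% did. Many of the 30 varied together between libraries, so these are not counts of separate observations. Both SCD calls were lost when lane was left out of the fit, with either stricter filter and with limma on log2(TPM + 1), and the call on LN523 held in 1 of 8 other ways of processing, with RLE size factors. The call on LN323 was lost without any 1 of the 3 LN323 libraries, that on LN523 without its library of lane 1 or 3, and both without the LN521 library of lane 1. Between LN523 and LN323, 0 of the 30 passed in edgeR's test, 0 had an unadjusted p under 0.05, and 0.013% of all genes were called. Because LN521 libraries serve in both comparisons, the 2 sets of values are not independent.

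Markers of other cell states moved in the same comparisons. Against LN521 at day 22, 2 of 6 pluripotency, 3 of 6 pigment epithelium and 3 of 6 neuronal markers were lower on LN523, and 4, 2 and 2 of 6 on LN323, with KRT17 of the 6 surface ectoderm markers higher on both. The summed pluripotency markers were at 109 to 381 CPM on LN521, 27.7 to 163 CPM on LN523 and 45.3 to 62.8 CPM on LN323. The pigment epithelium markers were at 1694 to 2423, 1048 to 1316 and 832 to 1932 CPM in sum, and the neuronal markers at 115 to 475, 98.3 to 124 and 94.8 to 125 CPM. The highest pluripotency and neuronal sums were those of the LN521 library of lane 1, without which both SCD calls were lost. Their part in the SCD difference was not tested.

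Within day 32, 0 of the 30 genes passed between any pair of coatings, where 0.0609% of all genes were called for LN523 against LN521 and 0.117% for LN323 against LN521, and LN523 against LN323 gave 0 calls over all genes in edgeR's test, with an unadjusted p under 0.05 for 747 genes and 823 calls in DESeq2. Over the 3 coatings at once 0 of the 30 and 0.109% of all genes passed. The counts of 0 against LN521 rested on 1 library. The LN521 library of lane 1 stood apart from the other LN521 libraries of its day: SREBF1 had 138, 41.6 and 75.2 CPM in lanes 1, 2 and 3, ACAT2 had 75.0, 28.2 and 53.0 CPM, and STARD4 had 44.7, 153 and 110 CPM.

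That library was the highest of its group in 12 of the 14 tightly varying genes. Of all 30 genes it was the highest in 14 and the lowest in 8. Its summed pigment epithelium markers were at 602 CPM, against 2209 and 2051 CPM in the other LN521 libraries of day 32. Its counts also leaned most to transcripts rich in G and C, with a slope of 1.09 against -0.70 and -0.39, in log2 units of deviation from the group mean over the full span of GC share. The part of either in the result was not tested.

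Without it, 13 of the 30 genes passed between LN523 and LN521 at day 32, 12 higher on LN523 and 1 lower, when 1907 genes (4.95%) were called in all, and 15 passed between LN323 and LN521, 13 higher on LN323 and 2 lower, when 2143 (5.57%) were called. The genes named here were chosen after their values were seen. On LN523 SREBF1 was then higher by 0.85, MVD by 0.83, FADS2 by 0.83, ACAT2 by 0.81 and FASN by 0.74 on the log2 scale, and STARD4 had -0.69, with adjusted p-values from 4.16e-08 to 7.78e-05 in edgeR's test. The lone pair of LN521 libraries then sets the level of that coating, and with all 3 libraries the differences did not pass.

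**Figure D3:**
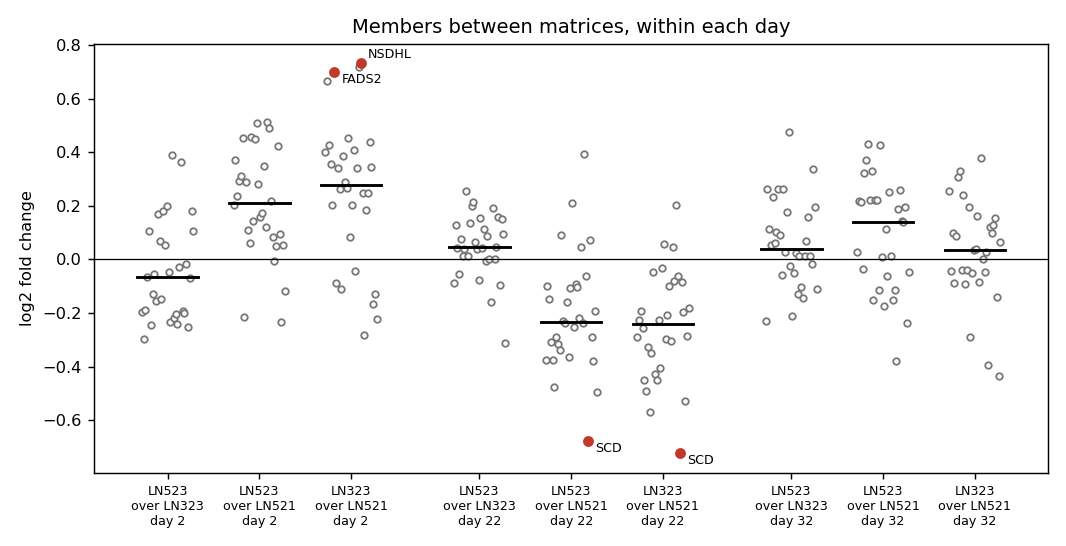
Log2 fold change of each of the 30 genes between coatings within each day. Each point is a gene, black bars mark the median of the 30, and red points had an adjusted p under 0.05. At day 2 most points lie above 0 for LN323 over LN521, with FADS2 at 0.70 and NSDHL at 0.73, and at day 22 most lie below 0 for LN523 and LN323 over LN521, with SCD at -0.68 and -0.72.

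The libraries of a group differed from each other in many of these genes at once. After subtraction of each group's mean from the log2 CPM, 106 of the 435 pairs of the 30 genes (24.4%) had a Pearson's r over 0.7 across the 27 libraries, against 2.61% of all pairs of the 14675 expressed genes. Pairs with r under -0.5 made up 8.97% and 8.66%. The 27 points share lanes, depth and base composition, so these values describe the libraries and carry no test. Without the 6 libraries of LN523 and LN323 at day 22, 87 pairs had an r over 0.7, 84 of them the same pairs.

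Of the 30 genes, 14 had 10 or more such partners: ACAT2, HMGCS1, MVK, MVD, FDPS, SQLE, LSS, CYP51A1, NSDHL, EBP, DHCR7, SREBF1, SCD and FADS2. They come from the mevalonate arm, from the steps after squalene and from fatty acid desaturation, and they include the transcript of one SREBP. Within the 14 the r ran from 0.59 to 0.98, with the highest, 0.984, between ACAT2 and FADS2, then 0.972 between MVD and DHCR7 and 0.970 between MVK and LSS.

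SREBF1 had an r of 0.74 to 0.94 with the other 13. As the 14 were picked by such values, a high r among them is built in. SREBF2, the factor known chiefly for cholesterol genes, had -0.22 to 0.16 with the 14. FADS1 had -0.71 to -0.44 with them, opposite in sign to its neighbour FADS2. A second set, MSMO1, STARD4, INSIG2 and SC5D, had 0.36 to 0.90 within itself and -0.75 to -0.09 with the 14.

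At day 22 the library of lane 2 was the highest of its group in 14 of the 14 genes on LN523, on LN323 and on LN521. The 14 were picked from these same deviations, so such agreement among them is built in. Of all 30 genes, that library was the highest in 21, 20 and 20 and the lowest in 7, 5 and 0. ACAT2 had 35.3, 112 and 29.6 CPM on LN523 in lanes 1, 2 and 3, 33.7, 99.2 and 42.2 CPM on LN323, and 69.4, 87.5 and 40.4 CPM on LN521. SREBF1 had 39.2, 168 and 50.2 CPM on LN523 and 42.4, 159 and 61.3 CPM on LN323. The lane 2 libraries of LN523 and LN323 lay above all LN521 libraries of day 22 for both genes, and the libraries of lanes 1 and 3 lay in or below the LN521 range.

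The same pattern did not hold on other days. At day 2, the lane 3 library was the lowest in 14 of the 14 genes on LN523 and in 12 on LN521, and the lane 2 library in 14 of them on LN323. Of all 30 genes these libraries were the lowest in 15, 17 and 21 and the highest in 10, 10 and 4. At day 32 the lane 1 library was the lowest in 14 of the 14 on LN523 and on LN323, and the lane 2 library in 13 on LN521. Of all 30 genes these were the lowest in 20, 22 and 18 and the highest in 2, 2 and 7. Lane was in the model as a block common to all groups, and it cannot be told apart from anything else that the library number marks.

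Technical measures and marker levels moved with parts of this pattern. Over the same 27 deviations, the slope of a library's counts on transcript GC content had an r of 0.07 with ACAT2, of which 42.2% of the transcript is G or C, and of -0.66, -0.59, -0.58 and -0.57 with MSMO1, STARD4, INSIG2 and SC5D, whose transcripts hold 34.4 to 37.4%. The log2 of a library's total count had a positive r with all 14 tightly varying genes, from 0.19 for SCD to 0.50 for CYP51A1. With MSMO1, STARD4, INSIG2 and SC5D its r was -0.48, -0.44, -0.28 and -0.44. The mean of 5 proliferation markers had an r of 0.61 with ACAT2 and that of the pigment epithelium markers -0.61. The mean of the 6 other SREBP-responsive genes had 0.93, and that of the 10 genes that use isoprenoids 0.78. Their part in the co-variation was not tested.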

How the data were processed

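RNA of H1 cells on 3 coatings at 3 days was sequenced as 27 libraries (TruSeq stranded total RNA, paired reads). The authors trimmed with cutadapt, aligned to hg38 with STAR 2.5.2b and deposited gene counts from featureCounts 1.5.1, per the submitters' processing notes, with ribosomal and mitochondrial genes removed and counts rounded. The authors also deposited TPM, a level per transcript length, used here to compare genes and in 1 alternative. Groups were taken from the labels of coating and day.

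Counts were tested in R 4.3.3 with edgeR 4.0.16 (TMM, genes with more than 1 count in sum, quasi-likelihood test, Benjamini-Hochberg adjustment over all genes, threshold 0.05) and lane as a block, after the study's model. Changes over time used all 27 libraries, coatings were compared within the 9 libraries of a day, and the 3 coatings at once by an F test. Scripts were tested on simulated data. Alternatives were DESeq2 1.42.0, RLE size factors, 2 stricter filters, limma 3.58.1 on log2(TPM + 1), no block, only the libraries compared, a GC offset and leaving out each library. The block was kept because each number is a lane: libraries of the same number and day had correlated deviations over 0.1 in 17 of 27 pairs (-0.61 to 0.78). Between days, libraries of the same number had them in 12 of 27 pairs within a coating (median r 0.07). Across both coating and day it was 18 of 54 pairs (median r -0.04). Library totals of 25620624 to 47340990 counts put every one of the 30 genes well above counting noise, and the coefficient of biological variation was 45.1% over all libraries.

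The 30 genes were named in both time steps, elsewhere those past the threshold (at most 5 each way), and at most 3 each way of other lists. Single values of some genes of the other lists are not reported here, although the counts include them. Genes and lists were chosen with earlier results of these data known. Symbols came from GENCODE 44, and SOX10 of the marker lists was unmatched.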

Additional observations from a re-analysis of the deposited data

How the results depend on the processing

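For day 2 to day 22, averaged over the coatings, the count called was 18 of the 30 in every setting but limma on log2(TPM + 1), which gave 12, although not always of the same genes, and 14 to 20 were called with 1 library left out. With limma on log2(TPM + 1) the fold changes of DHCR7, IDI1, MSMO1, NSDHL and PMVK turned to 0.15, 0.0658, 0.0558, 0.0592 and 0.000625, the count on LN523 was 5 (2 higher and 3 lower), that on LN521 3, and those for day 22 to day 32 (mean and LN523) 0. With only the libraries compared, DHCR7 had 0.0328, and the counts were 2 for the difference between coatings (day 2 to day 22), 1 for LN521 (day 22 to day 32), 2 for LN523 against LN323 at day 32 and 0 for LN523 against LN521 at day 22. Without the replicate block the F test over 3 coatings gave 2 at day 2 and 0 at day 22, and LN523 and LN323 against LN521 at day 22 both gave 0, and the block changed no other count beyond 1.5 times. At least 10 counts in every library and the filterByExpr filter gave 0 for LN523 from day 22 to day 32, and these filters and limma gave 0 for the F test at days 2 and 22, for LN323 against LN521 at days 2 and 22 and for LN523 against LN521 at day 22. DESeq2 gave 0 for the F test at both days, LN323 against LN521 at day 2 and LN523 against LN521 at day 22. The GC offset, chosen after the data were seen, gave 0 for LN523 against LN521 at day 22. The causes were not tested.

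With 1 library left out, counts ran from 4 to 12 on LN523, 7 to 15 on LN323 and 5 to 6 on LN521 for day 2 to day 22, and from 0 to 1 for the mean, LN523 and LN521 for day 22 to day 32. They ran from 0 to 12 for the F test and LN323 against LN521 at day 2, 0 to 2 for LN523 against LN323 and against LN521 at day 2, 0 to 2 for the F test and 0 to 3 for LN523 and LN323 against LN521 at day 22, and, at day 32, 0 to 16 for the F test, 0 to 15 for LN323 and 0 to 13 for LN523 against LN521. The fold change of DHCR7 ran from -0.16 to 0.14, of MSMO1 from -0.22 to 0.0391 and of NSDHL from -0.24 to 0.0443. The lowest count of the 30 genes in a library was 163, so the spread between libraries rather than low counts limits these comparisons.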
